A study of Ovis aries with 8 samples.

Results

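The genes described here are those of neurons and of sympathetic nerve, measured in the fat around the kidney of 8 lambs. A list of 38 gene symbols was chosen with earlier results of these data known. Those results included the levels on the array of 1 lamb, NmatNpat animal 1. Of the 38 symbols, 32 had a probe set with that symbol alone, out of 9155 genes measured in this way. NPY, INA, PRPH, TUBB3, ELAVL3 and GATA3 were not measured, since no probe set carried their symbol alone. Each gene was represented by its probe set with the highest mean, and every level below is a log2 intensity after quantile normalization of the 8 arrays. On that scale the median of the 24016 probe sets was 6.09, and a gene is said to read on an array when its level lay above that median, because the deposited table has no detection calls.

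Fat is supplied by sympathetic nerves, whose cell bodies lie in ganglia outside the depot and whose axons run along its vessels and among its fat cells. Their transmitter, noradrenaline, is made from tyrosine by TH, DDC and DBH, loaded into vesicles by SLC18A2 and taken back up by SLC6A2. It is stored in dense-core vesicles with granins and peptides, and it is released when SNAP25 and its partners fuse the vesicle with the membrane. Most of a neuron's mRNA is held in its cell body, and much less travels along the axon. Chromaffin cells of the adrenal medulla share nearly all of this machinery and in addition convert noradrenaline to adrenaline with PNMT.

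The 4 NmatCpat lambs carried the Callipyge allele inherited from the sire and a wild type allele from the dam, and the 4 NmatNpat lambs carried wild type alleles on both sides. All were unweaned males of 12 weeks from a Dorset/Suffolk/Rambouillet cross-bred flock. A piece of perirenal adipose tissue per lamb was frozen soon after death and its RNA was hybridised to 1 Affymetrix Bovine Genome array, so that sheep transcripts were read by probes designed on cattle sequence. The study used these arrays to ask whether the mutation affects transcription in a tissue other than skeletal muscle.

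The tissue label held on all 8 arrays. FABP4, the fatty acid carrier of fat cells, lay between 13.63 and 13.74, and ADIPOQ, which encodes adiponectin, between 12.81 and 13.29. The deposited medians of the arrays ran from 65.3 to 72.55. The array of NmatNpat animal 1 stood apart before any nerve gene was considered by its actin control ratio, the signal of the 3' probe set over that of the 5' one, which rises as RNA is degraded or labelled only near its 3' end. It was 26.1 against 4.04 to 11.8 on the other 7 arrays. Over all probe sets, those of the nerve genes included, that array had 184 that exceeded the mean of the remaining arrays by more than 3. Each of the others had 20 to 54. The part of the actin ratio in the levels below was not tested, and the comparison of the genotypes was run with and without that animal.

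NmatNpat animal 1 had the highest level of the 8 arrays for 28 of the 32 genes, where it was highest for 14.6% of all genes. It exceeded every other array by more than 1 log2 unit for 24 of them, against 2.03% of all genes, and by more than 3 for 12, against 0.393%. The median distance from this array to the highest of the other 7 was 2.66 over the 32 genes and -0.46 over all genes. Because the levels of this array chose the members, these figures describe the list and carry no test. In bulk tissue, a change in the number of cells of a type and a change in the RNA per cell cannot be told apart. On this array 26 of the 32 genes read, and on the others 3 to 10 read. That most of the list read on this array follows from how it was chosen, while on the other 7 most of its genes lay below the median of all probe sets.

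**Figure D1:**
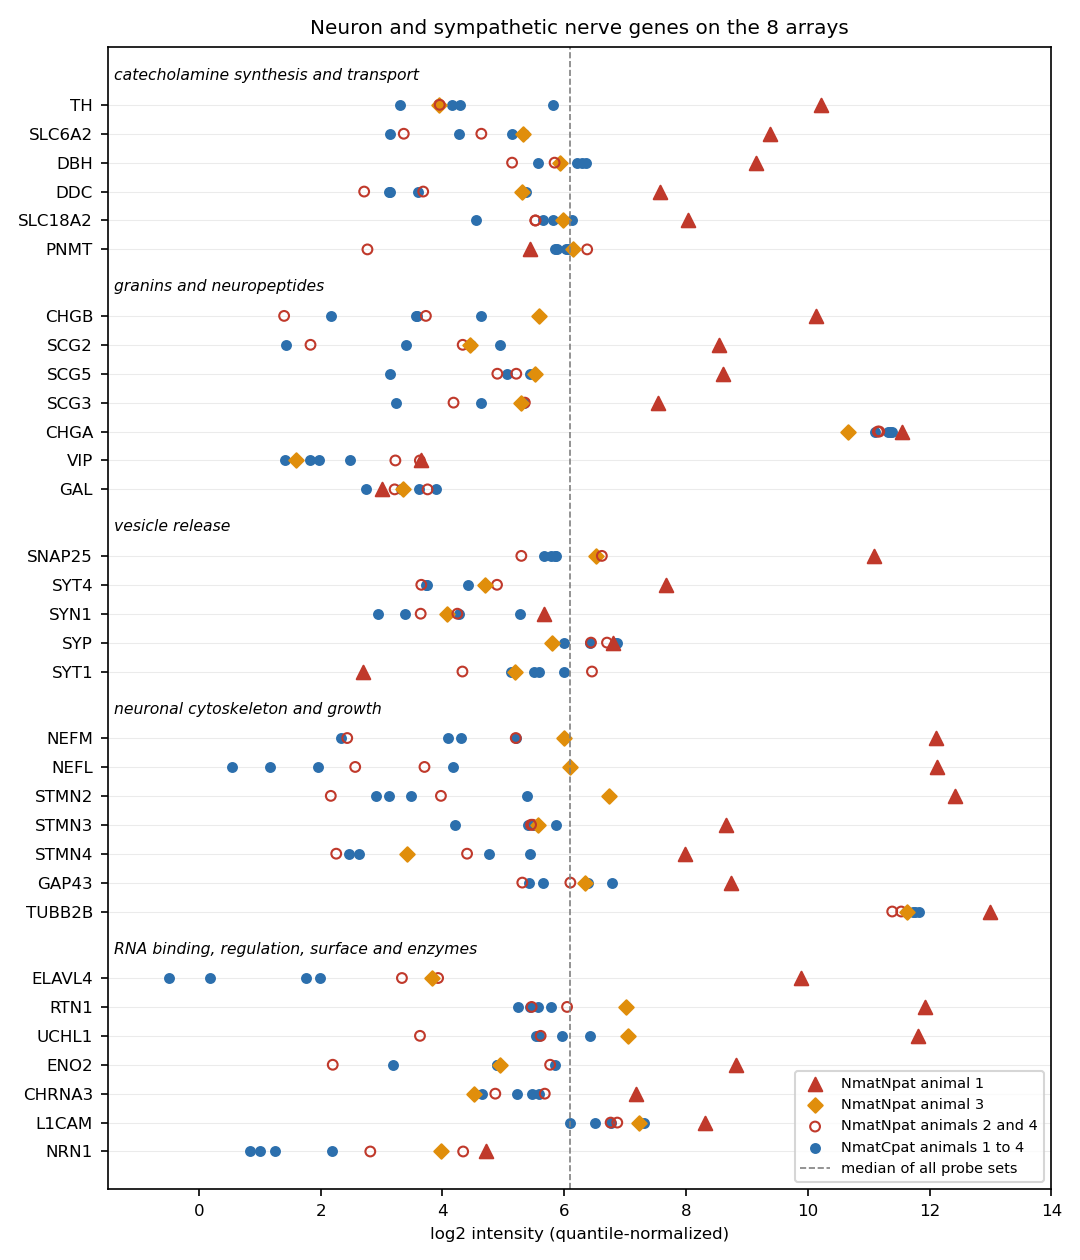
Level of each of the 32 measured genes on the 8 arrays, as log2 intensity after quantile normalization, with 1 symbol per array and the genes grouped by role. The triangles of NmatNpat animal 1 lie to the right of all other symbols for 28 genes, and the dashed line is the median of all probe sets, 6.09.

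Of the 6 genes of catecholamine synthesis and transport, 5 were highest on the array of NmatNpat animal 1, and none read on all of the other 7. TH, the rate-limiting enzyme, lay at 4.15, 5.81, 3.30 and 4.29 in NmatCpat animals 1 to 4, at 3.95, 3.95 and 3.96 in NmatNpat animals 2 to 4, and at 10.21 in NmatNpat animal 1. The last value was 4.40 above the next, and TH read on no other array. SLC6A2, the noradrenaline transporter of the nerve ending, lay at 5.34, 5.14, 3.14 and 4.28 in the NmatCpat lambs, at 3.36, 5.32 and 4.64 in NmatNpat animals 2 to 4, and at 9.38 in NmatNpat animal 1. Its other probe sets, both dimmer, were also highest on that array, by 0.90 and 1.47.

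DBH, which turns dopamine into noradrenaline inside the vesicle, lay at 6.21, 6.37, 6.29 and 5.56 in the NmatCpat lambs, at 5.14, 5.93 and 5.84 in NmatNpat animals 2 to 4, and at 9.14 in NmatNpat animal 1. It read on 3 of the other 7 arrays, all NmatCpat. DDC, the decarboxylase that makes dopamine, was 7.58 on the array of NmatNpat animal 1 against 2.71 to 5.37 elsewhere, and SLC18A2, the vesicular monoamine transporter, was 8.04 against 4.56 to 6.13. PNMT, the enzyme that separates adrenaline-producing from noradrenaline-producing cells, lay within the range of the other arrays in NmatNpat animal 1. It lay at 6.05, 6.03, 5.88 and 5.84 in the NmatCpat lambs and at 5.44, 6.38, 6.14 and 2.77 in NmatNpat animals 1 to 4, so that NmatNpat animal 1 was 0.94 below the highest array and did not read.

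The cofactor and breakdown enzymes of the same pathway, a wider list of 9 genes of which 7 were measured, showed 1 gene with such a lead. CYB561, the vesicle membrane protein that supplies DBH with reducing equivalents, was 9.38 on the array of NmatNpat animal 1 and 5.92 to 6.69 on the others. GCH1 and SPR, of the synthesis of the TH cofactor, were 0.71 and 1.06 below the highest other array, while QDPR, which regenerates that cofactor, was 0.37 above it. MAOA, which degrades catecholamines in many cell types, read on all 8 arrays, with 11.19 in NmatNpat animal 1 and 10.32 to 11.22 in the others. Of 10 transcription factors of sympathetic neurons only HAND1 was measured, at 7.64 in NmatNpat animal 1 and 4.54 to 6.08 elsewhere. Among the markers fixed for these neurons, TH, DBH and SLC6A2 were the ones measured.

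Among granins and neuropeptides, 6 of the 7 measured genes were highest on the array of NmatNpat animal 1, 4 of them by more than 1 log2 unit. CHGB, a core protein of dense-core vesicles, lay at 4.64, 2.17, 3.56 and 3.58 in the NmatCpat lambs, at 3.73, 5.59 and 1.4 in NmatNpat animals 2 to 4, and at 10.14 in NmatNpat animal 1. SCG2, the precursor of secretoneurin, lay at 3.41, 4.94, 1.43 and 4.47 in the NmatCpat lambs, at 4.33, 4.44 and 1.83 in NmatNpat animals 2 to 4, and at 8.54 in NmatNpat animal 1. Both genes were below the median of all probe sets on each of the other 7 arrays. SCG5, a chaperone of the prohormone convertase PCSK2, reached 8.61 against 3.14 to 5.53 elsewhere, and SCG3, which anchors granins to the vesicle membrane, reached 7.53 against 3.24 to 5.35. In a wider list of 12 peptide and peptide-processing genes, 9 were measured, 4 were highest in NmatNpat animal 1, 3 of them by more than 1, and the median lead was -0.12. PCSK2 itself was 5.09 in NmatNpat animal 1, where it did not read, and 1.01 to 2.01 in the others. PENK, the enkephalin precursor, was 9.19 against 5.13 to 6.66, and PCSK1N, an inhibitor of PCSK1, was 8.74 against 5.46 to 7.27. PAM, which amidates peptides, read at 11.21 in NmatNpat animal 1 and at 10.79 to 11.11 in the others. SST, PCSK1, CPE and CARTPT lay 0.12 to 1.55 below the highest array there.

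CHGA, the granin used as a general marker of neuroendocrine cells, behaved differently on its probe sets. On the brighter one it read on all 8 arrays, at 11.38, 11.35, 11.11 and 11.32 in the NmatCpat lambs and at 11.55, 11.15, 10.66 and 11.17 in NmatNpat animals 1 to 4, a lead of only 0.16 for NmatNpat animal 1. On the dimmer one NmatNpat animal 1 lay at 7.97, 1.90 above the next array, and the other 7 lay between 5.37 and 6.07, all below the median of all probe sets. Which of these probe sets follows the CHGA transcript of sheep was not tested. The peptides GAL and VIP were low everywhere. GAL, which encodes galanin, was 3.01 in NmatNpat animal 1 and 2.75 to 3.89 in the others, and VIP, the vasoactive intestinal peptide, was 3.66 against 1.42 to 3.63. TAC1, the precursor of substance P in sensory fibres, read on all 8 arrays and was lowest in NmatNpat animal 1, at 9.44 against 9.72 to 10.21. TAC1 had 2 probe sets, of which the brighter is given, and whether it follows the TAC1 transcript of sheep was not tested. TAC1 was singled out after its values were seen.

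The vesicle release genes were the least uniform group, with 3 of 5 highest on the array of NmatNpat animal 1 and a median lead of 0.39. SNAP25, a core protein of the fusion complex, lay at 5.78, 5.66, 5.85 and 5.86 in the NmatCpat lambs, at 5.30, 6.52 and 6.62 in NmatNpat animals 2 to 4, and at 11.09 in NmatNpat animal 1. It read on NmatNpat animals 3 and 4 as well, and on no NmatCpat array. SYT4, a synaptotagmin of dense-core vesicles, was 7.67 in NmatNpat animal 1 and 3.65 to 4.90 elsewhere, and its dimmer probe set was 9.72 there and 1.95 to 5.54 elsewhere.

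For SYT1, the calcium sensor of fast release, the probe sets disagreed in direction. The brighter lay at 5.12, 5.50, 5.59 and 6.0 in the NmatCpat lambs and at 2.69, 6.46, 5.20 and 4.33 in NmatNpat animals 1 to 4, with NmatNpat animal 1 lowest. The dimmer was 6.10 in NmatNpat animal 1 and 1.22 to 4.35 in the others. SYP, a membrane protein of small vesicles, likewise had a brighter probe set with overlapping levels, 6.8 in NmatNpat animal 1 and 5.80 to 6.87 elsewhere, and a dimmer one with 5.83 against 3.42 to 4.13. SYN1, which tethers vesicles, was 5.67 in NmatNpat animal 1 and 2.94 to 5.28 in the others, so that it read on no array.

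A wider list of 24 vesicle release genes, 13 of them measured, gave a lead over 1 log2 unit for SYNGR3, RAB3A and NAPB. SYNGR3, a synaptic vesicle protein, was 9.59 in NmatNpat animal 1 and 6.91 to 7.52 in the others, and RAB3A, the small GTPase of vesicle docking, was 7.86 against 2.62 to 5.84. SV2A, a vesicle glycoprotein, read at 9.05 in NmatNpat animal 1 and at 8.88 to 9.36 in the others.

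All 7 measured genes of the neuronal cytoskeleton and axon growth were highest on the array of NmatNpat animal 1, and each by more than 1 log2 unit. NEFL, the light neurofilament subunit, lay at 1.95, 1.17, 4.17 and 0.54 in the NmatCpat lambs, at 2.57, 6.09 and 3.70 in NmatNpat animals 2 to 4, and at 12.13 in NmatNpat animal 1. NEFM, the medium subunit with which it assembles, lay at 4.30, 5.20, 2.34 and 4.09 in the NmatCpat lambs, at 2.44, 5.99 and 5.20 in NmatNpat animals 2 to 4, and at 12.10 in NmatNpat animal 1. The leads were 6.04 and 6.11, and the second probe set of NEFL gave 5.49. STMN2, a microtubule regulator of growing axons, lay at 3.12, 5.39, 2.90 and 3.49 in the NmatCpat lambs, at 3.97, 6.74 and 2.17 in NmatNpat animals 2 to 4, and at 12.41 in NmatNpat animal 1. In each of these 3 genes NmatNpat animal 3 had the next highest level.

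STMN3 and STMN4, relatives of STMN2, were 8.66 and 7.98 in NmatNpat animal 1, against 4.21 to 5.86 and 2.26 to 5.44 in the others. A dimmer probe set of STMN3 gave a lead of 3.15. The dimmest had NmatCpat animal 1 highest, at 5.68 against 4.20 in NmatNpat animal 1, and the mean of the STMN3 probe sets left a lead of 1.49. GAP43, a growth cone protein also made by Schwann cells, was 8.73 against 5.31 to 6.78 and read on 4 of the other 7 arrays. TUBB2B, a beta tubulin, read on all 8 arrays, at 11.77, 11.62, 11.83 and 11.72 in the NmatCpat lambs and at 12.99, 11.53, 11.62 and 11.39 in NmatNpat animals 1 to 4. Its other probe set had NmatNpat animal 1 lowest, at 7.96 against 8.29 to 9.31, and the mean of both left a lead of -0.04. A wider list of 20 axon cytoskeleton genes, 12 of them measured, had MAP2 and MAP1B, microtubule-associated proteins of neurons, at 11.44 and 10.89 in NmatNpat animal 1, against 7.0 to 7.87 and 6.51 to 7.64 elsewhere. BASP1, a membrane protein of axon endings, was 11.91 against 7.31 to 9.19. TUBA1A, an alpha tubulin, read at 13.28 in NmatNpat animal 1 and at 12.04 to 12.82 in the others.

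The remaining 7 measured genes, of RNA binding, the cell surface and neuronal enzymes, were all highest on the array of NmatNpat animal 1, 6 of them by more than 1 log2 unit. UCHL1, the ubiquitin hydrolase PGP9.5 used to stain nerve fibres, lay at 6.43, 5.96, 5.58 and 5.54 in the NmatCpat lambs, at 5.61, 7.04 and 3.63 in NmatNpat animals 2 to 4, and at 11.81 in NmatNpat animal 1. RTN1, a reticulon of the neuronal endoplasmic reticulum, lay at 5.44, 5.57, 5.24 and 5.79 in the NmatCpat lambs, at 5.46, 7.01 and 6.05 in NmatNpat animals 2 to 4, and at 11.93 in NmatNpat animal 1. NmatNpat animal 3 was second for both and read for both. ENO2, the neuronal enolase, was 8.81 in NmatNpat animal 1 and 2.20 to 5.84 in the others. CHRNA3, the nicotinic receptor subunit through which ganglion cells receive their input, was 7.18 against 4.51 to 5.68.

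L1CAM, an adhesion molecule of axons, was the only gene of this group that read on all 8 arrays, at 6.10, 6.51, 7.31 and 6.77 in the NmatCpat lambs and at 8.31, 6.76, 7.23 and 6.87 in NmatNpat animals 1 to 4. Among 17 further adhesion molecules and neurotrophin receptors, 10 were measured and 6 led by more than 1 log2 unit. NGFR, the low-affinity neurotrophin receptor of sympathetic neurons and Schwann cells, was 10.23 in NmatNpat animal 1 and 5.67 to 6.72 in the others. NRCAM, an adhesion molecule of nodes, was 7.77 against 0.03 to 4.71, and RET, the receptor for the GDNF family, was 9.0 against 4.17 to 7.13. NTRK2, the receptor for BDNF, read at 10.44 in NmatNpat animal 1 and at 9.02 to 10.79 in the others. Of 11 channels and pumps, 5 were measured, 2 were highest in NmatNpat animal 1, and the median lead was -0.21. CHRNB4, the partner of CHRNA3, was 6.21 against 2.14 to 4.95. CHRNA7, another nicotinic subunit, was lowest there, at 2.25 against 3.32 to 5.71, and CHRNB2 had a lead of 0.02. CACNA2D1, a calcium channel subunit, was 6.14 in NmatNpat animal 1 and 3.50 to 6.36 in the others.

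Over all these wider lists, 57 of 103 genes were measured, of which 36 were highest on the array of NmatNpat animal 1, 20 led by more than 1 and 5 by more than 3. The background shares over all genes were those given above, 14.6%, 2.03% and 0.393%. The leads by list are plotted beside those of lists for other cell types.

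**Figure D2:**
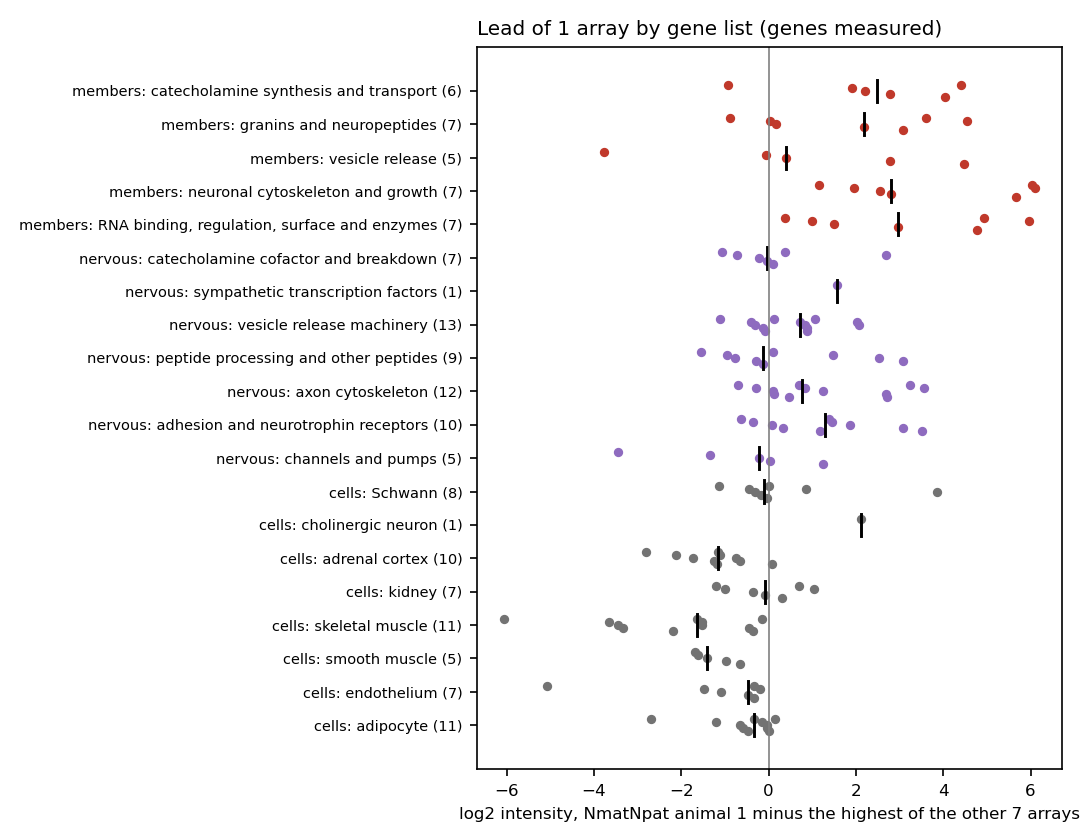
Level of NmatNpat animal 1 minus the highest of the other 7 arrays, in log2 intensity, for each measured gene of each list (points) with the list's median (bar) and the number of genes in parentheses. Most points of the member lists lie to the right of 0, and the wider nerve lists lie on both sides. The muscle, endothelium, adrenal cortex and adipocyte lists lie at or left of about 0. In the kidney, Schwann and cholinergic lists 3 of 7, 2 of 8 and 1 of 1 genes lie to the right of 0.

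Markers of the cells that can accompany nerve or lie near the kidney were read on the same arrays. Of the 8 measured Schwann cell genes 2 were highest in NmatNpat animal 1. FABP7, found in immature glia, was 8.04 against 1.16 to 4.19, and MBP, a myelin protein, was 7.32 against 5.33 to 6.45. S100B, the brightest gene of that list, lay at 11.21 in NmatNpat animal 1 and at 10.93 to 11.65 in the others. SOX10 lay at 5.86 against 5.16 to 6.03, below the median of all probe sets on every array. The list's summed linear intensity, which rests largely on S100B, was 3352 in NmatNpat animal 1. It was 2506 to 3420 in the NmatCpat lambs and 2359 to 3758 in the other NmatNpat lambs. Whether S100B follows Schwann cells in this tissue was not tested. ACHE, the 1 measured gene of cholinergic neurons and also made by other neurons, was 8.47 against 4.62 to 6.35.

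The 10 measured adrenal cortex genes did not move with the nerve genes. Their sum was 689 in NmatNpat animal 1, 902 to 1235 in the NmatCpat lambs and 696 to 1160 in the other NmatNpat lambs. In NmatNpat animal 1 CYP11A1 and CYP17A1, defining steroid enzymes, lay at 3.36 and 3.53. STAR, the 1 gene of the list that was highest there, lay at 6.21, a lead of 0.07. Of the chromaffin markers, PNMT did not read in NmatNpat animal 1, and SLC18A1 was not measured. TH, DBH and CHGA, also on that list, read and were highest there, at 10.21, 9.14 and 11.55, with a lead of only 0.16 for CHGA. The 7 measured kidney genes summed to 539 in NmatNpat animal 1, above the 203 to 381 of the other 7 arrays, and 3 of them were highest there. UMOD, of the thick ascending limb, was 7.22 against 3.01 to 6.17, and SLC22A6, a transporter of the proximal tubule, was 7.24 against 5.37 to 6.55, while SLC12A1 and SLC34A1, of the same segments, were 1.0 and 1.22 below the highest array. The part of kidney RNA in these levels was not tested. Of the 23 skeletal muscle, smooth muscle and endothelial genes measured none was highest in NmatNpat animal 1, and the 11 adipocyte genes summed to 40812 against 37551 to 42329.

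Leads of this size were not limited to the member list. Over all 24016 probe sets, 60 led by more than 3 log2 units in NmatNpat animal 1, of which 15 belonged to the members, 6 to the wider nerve lists and 2 to the cell type lists. A further 22 carried another symbol and 15 carried none or several. By the fixed rule, the 12 genes in no list with the largest leads were ALDOC, GNG3, SLC6A15, LOC767968, ARHGDIG, ATL1, MAB21L1, PPP2R2B, KIF21A, PDYN, RUFY3 and JAKMIP1, with leads of 3.45 to 5.25. ALDOC, the aldolase of brain, lay at 5.37, 3.98, 5.71 and 5.22 in the NmatCpat lambs, at 5.80, 6.57 and 6.02 in NmatNpat animals 2 to 4, and at 11.82 in NmatNpat animal 1. GNG3, a G protein subunit of neurons, was 8.84 against 2.94 to 3.89. PDYN, the precursor of the dynorphin peptides, was 7.63 against 2.36 to 4.09, and ATL1, an atlastin of axonal endoplasmic reticulum, was 10.20 against 5.02 to 6.16.

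The next question was which of these genes also read in the other 7 lambs. CHGA, TUBB2B and L1CAM read on all 7, 11 genes read on some of them and 18 on none, where 58.2% of all genes read on all 7. Of the 18, 14 read only in NmatNpat animal 1, among them TH, SLC6A2, DDC, CHGB, SCG2, NEFM, ELAVL4 and ENO2. GAL, VIP, SYN1 and NRN1 read on no array. The counts of genes that read were 6, 7, 6 and 3 in the NmatCpat lambs and 7, 10 and 5 in NmatNpat animals 2 to 4. The median levels of the 32 genes were 5.17, 5.29, 4.70 and 5.11 in the NmatCpat lambs and 4.88, 5.55 and 4.33 in NmatNpat animals 2 to 4, so that the genotypes overlapped.

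Among those 7 arrays NmatNpat animal 3 had the highest level of 6 of the 32 genes, where it was highest for 12.9% of all genes, and NmatCpat animals 1 and 2 and NmatNpat animal 2 were also highest for 6 each. All 6 genes of NmatNpat animal 3, namely CHGB, STMN2, NEFL, NEFM, UCHL1 and RTN1, were among the 12 with a lead over 3 in NmatNpat animal 1. It was first or second of the 7 for 10 of those 12. This pattern was noticed after the values were seen and carries no test.

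On the linear scale the level of NmatNpat animal 3 above the median of the other 6 arrays was put as a percentage of the corresponding excess of NmatNpat animal 1. Over the 12 genes its median was 1.80%, with a range of -0.10% for TH to 3.26% for CHGB, and it was above 0 for 11. The medians of the other arrays lay between -0.29% and 0.17%, with 3 to 6 genes above 0 on each. Their highest single genes lay between 1.22% and 4.36%, the last for SCG2 in NmatCpat animal 2, so single genes there exceeded those of NmatNpat animal 3. For STMN2, NEFL and NEFM the percentages were 1.78, 1.42 and 1.03 in NmatNpat animal 3. On that array TH, SLC6A2, CHGB, SCG2, SCG5, NEFM and ELAVL4 lay below the median of all probe sets. NEFL lay at that median, 6.09, and SNAP25, STMN2, UCHL1 and RTN1 lay above it. The actin 3' to 5' ratio of that array, 9.81, lay within those of the other arrays, and its 20 probe sets over 3 log2 units above the rest were the fewest of the 8. The cause of the excess in NmatNpat animal 3 was not tested.

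**Figure D3:**
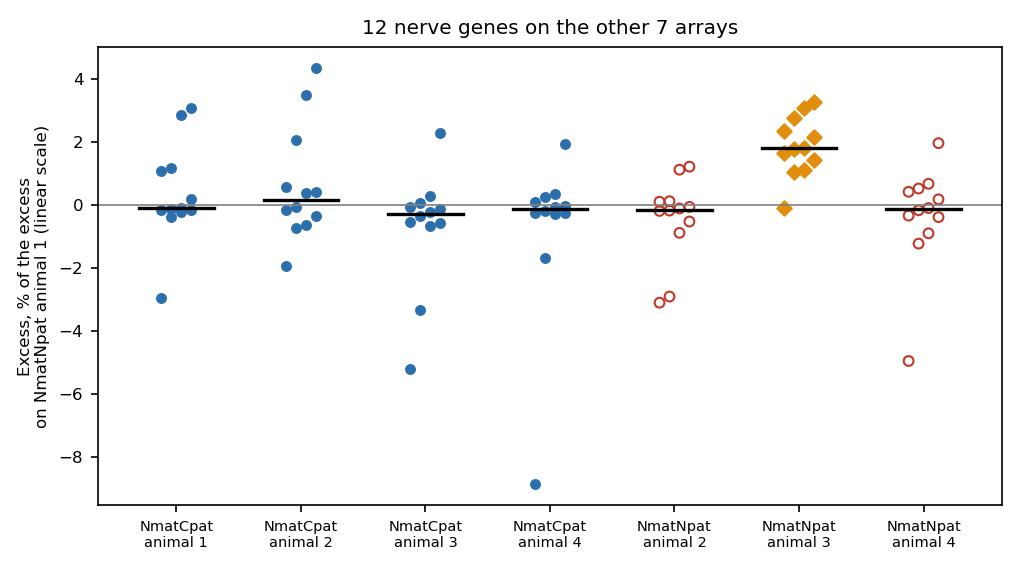
Excess of each of 12 nerve genes on the 7 other arrays, as a percentage of the excess of NmatNpat animal 1 on the linear intensity scale, with 1 point per gene and a bar at the median. The median was 1.80% in NmatNpat animal 3 and lay between -0.29% and 0.17% on the other arrays.

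The genotypes were compared with limma over all 24016 probe sets, and a probe set was called when P was 0.05 or less with a fold above 1.5, which are the study's thresholds. With all 8 arrays 452 probe sets (1.88%) were called lower in NmatCpat lambs and 491 (2.04%) higher, and none passed an adjusted p of 0.05, with 1118 at an unadjusted P of at most 0.05. Of the 32 nerve genes 2 were called lower, ELAVL4 and NRN1, and none higher. This comparison includes the array that chose the genes, and 27 of the 32 differences were below 0, with a median of -1.03. Without NmatNpat animal 1, 464 probe sets (1.93%) were called lower and 531 (2.21%) higher, none at an adjusted p of 0.05. This fit is not independent of the choice either, since the members were chosen with earlier results of these data known. The members called were again ELAVL4 and NRN1, both lower in NmatCpat lambs. Of the 32 differences 18 were then below 0 and 14 above it, and their median was -0.06, against -0.01 over all probe sets.

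ELAVL4, an RNA-binding protein of neurons also known as HuD, lay at 1.76, 0.18, -0.50 and 2.0 in the NmatCpat lambs and at 9.89, 3.93, 3.83 and 3.33 in NmatNpat animals 1 to 4. The genotypes did not overlap, with or without the first NmatNpat animal. The NmatCpat mean was 0.86 ± 1.21 (SD, n = 4), and the mean of NmatNpat animals 2 to 4 was 3.70 ± 0.32 (SD, n = 3). The difference over these 7 arrays was -2.84 ± 0.64 (SE), with a 95% interval of -4.36 to -1.31 (limma, adjusted p = 0.86). With all 8 arrays it was -4.39 ± 1.46 (SE; limma P = 0.017, adjusted p = 0.98; two-sided exact permutation test, p = 0.0286, the smallest that 4 against 4 lambs allow). All levels but that of NmatNpat animal 1 lay below the median of all probe sets, and with an offset of 16 before the logarithm the difference was -1.94 and was no longer called.

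NRN1, a membrane-anchored protein that promotes neurite growth, lay at 0.84, 1.01, 1.25 and 2.18 in the NmatCpat lambs and at 4.71, 2.81, 3.98 and 4.34 in NmatNpat animals 1 to 4. NmatNpat animal 1 was highest by only 0.37, so that here the 4 NmatNpat lambs lay together above the NmatCpat lambs. The NmatCpat mean was 1.32 ± 0.60 and the NmatNpat mean 3.96 ± 0.82 (SD, n = 4 each). The difference was -2.64 ± 0.46 (SE), with a 95% interval of -3.71 to -1.57 and a limma P of 0.00047 (adjusted p = 0.78; exact permutation test, p = 0.0286). Without NmatNpat animal 1 it was -2.39 ± 0.47 (SE; limma, adjusted p = 0.76). NRN1 read on none of the 8 arrays. With the offset of 16 the difference was -0.80 and was still called. ELAVL4 and NRN1 were the members that did not overlap between the genotypes, 2 of 32, where 2.74% of all probe sets did not overlap. The p-values of both genes are not independent of how the list was made.

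**Figure D4:**
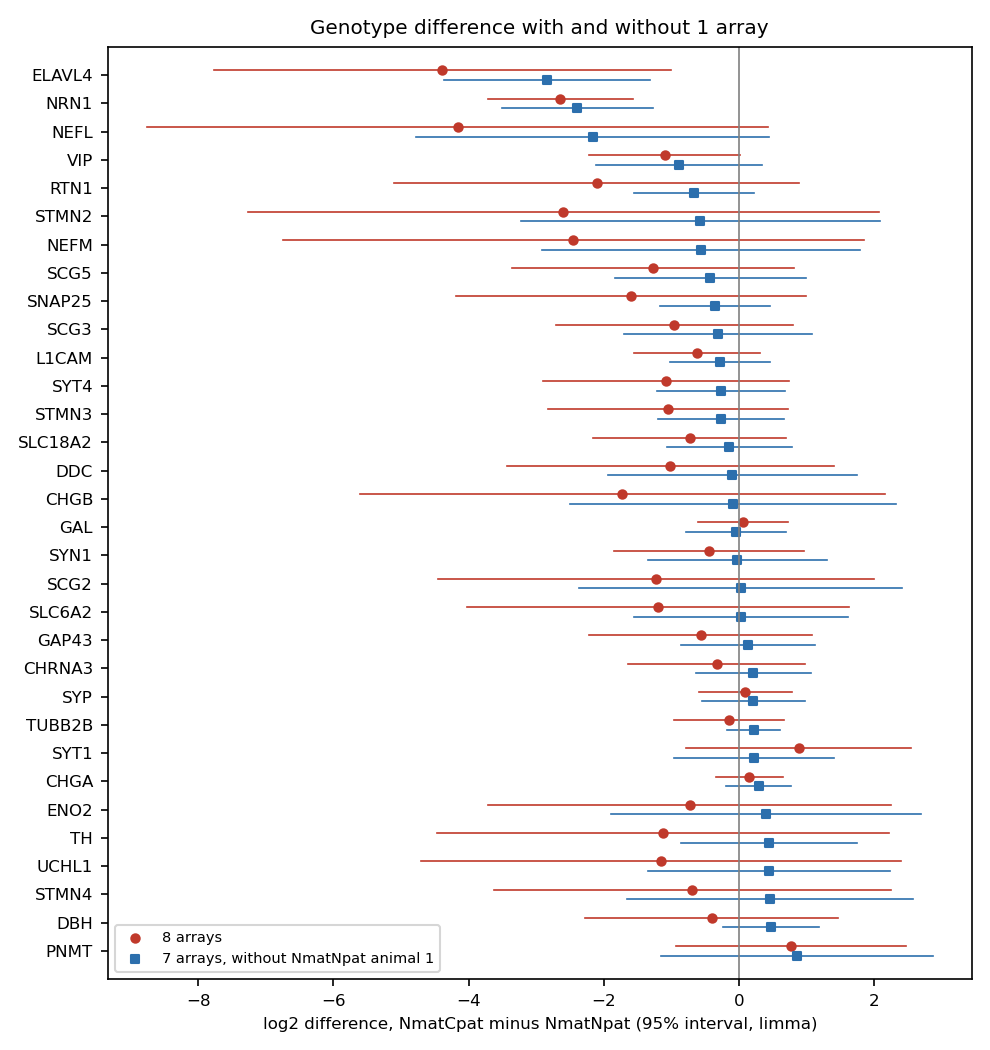
Difference between the genotypes for the 32 genes, NmatCpat minus NmatNpat in log2 intensity with limma's 95% interval, over 8 arrays (circles) and over 7 arrays without NmatNpat animal 1 (squares). ELAVL4 and NRN1 have intervals below 0 in both fits, and the median difference moves from -1.03 to -0.06.

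The other 30 genes passed neither fit. Over 8 arrays their differences ran from -4.16 for NEFL to 0.88 for SYT1, and over 7 from -2.16 for NEFL to 0.86 for PNMT. NEFL differed by -4.16 ± 1.99 (SE) over 8 arrays (limma P = 0.070, adjusted p = 0.98; exact permutation test, p = 0.086) and by -2.16 ± 1.10 (SE) over 7, with a 95% interval of -4.77 to 0.45. The sympathetic genes moved around 0 once NmatNpat animal 1 was left out. TH differed by -1.12 over 8 arrays and by 0.44 over 7, with a 95% interval of -0.86 to 1.74, DBH by -0.40 and 0.47 (interval -0.23 to 1.18) and SLC6A2 by -1.20 and 0.03 (interval -1.55 to 1.62). VIP, which read on no array, differed by -1.10 (interval -2.22 to 0.02; limma P = 0.054, adjusted p = 0.98; exact permutation test, p = 0.11) and by -0.89 over 7 arrays. The median 95% interval reached 1.85 log2 units to either side over 8 arrays and 1.27 over 7.

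Of the 57 measured genes of the wider lists, 2 were called lower and 1 higher over 8 arrays. SNCG, a synuclein that fat cells also express, was lower, with a difference of -1.93 (limma P = 0.023, adjusted p = 0.98; exact permutation test, p = 0.0286), with 6.63, 6.79, 6.46 and 6.40 in the NmatCpat lambs and 10.23, 9.35, 7.16 and 7.27 in NmatNpat animals 1 to 4. NCAM1, an adhesion molecule of neurons and glia, differed by -1.24 (limma P = 0.021, adjusted p = 0.98; exact permutation test, p = 0.0286). CHRNA7, a nicotinic receptor subunit, was higher by 1.51 (limma P = 0.029, adjusted p = 0.98; exact permutation test, p = 0.057). Over 7 arrays SNCG (-1.35) and NCAM1 (-0.81) were called lower, and NAPB (1.46) and KIF3A (0.93), a vesicle fusion adaptor and a kinesin, were called higher. CHRNA7, whose lowest level was that of NmatNpat animal 1, differed by 1.12 over 7 arrays and was no longer called. NAPB and KIF3A differed by 0.73 and 0.65 over 8 arrays and were not called there. Over all probe sets the shares called lower and higher were 1.88% and 2.04% with 8 arrays, and 1.93% and 2.21% with 7.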

How the data were processed

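Total RNA from perirenal fat of 8 male lambs was hybridised by the authors to Affymetrix Bovine Genome arrays, 1 per lamb. The submitters' processing notes name MAS5 and no version, and the study's methods add background correction and quantile normalization. The deposited values are intensity on a linear scale whose columns do not share quantiles, so log2 values were quantile-normalized here. Of 24128 probe sets, 112 controls were left out. The array's platform annotation gave 13292 probe sets 1 symbol, 86 several and 10638 none, and it is old. Lambs were grouped by genotype from the labels. The members and lists were chosen with earlier results of these data known. The genes named were all members, in each wider list up to 3 with the largest lead of NmatNpat animal 1 and 1 with the highest mean elsewhere, and the 12 unlisted genes with the largest lead. Other genes named were chosen after their values were seen.

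The genotype model was limma's (version 3.58.1, under R 4.3.3, with lmFit and eBayes and no covariates; Benjamini-Hochberg over 24016 probe sets), and the fit was tested on simulated data with known changes. The number of arrays limits the precision, and nothing in the labels says how lambs were related. Alternatives were other normalizations, an offset, filters, variance models, a replicate block, each lamb left out, the mean of a gene's probe sets and other thresholds.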

Additional observations from a re-analysis of the deposited data

Results flagged for a closer look

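Within the 4 NmatNpat lambs, the array of NmatNpat animal 1 lay far above the others for 5 genes by Dixon's ratio, the gap to the nearest lamb over the range of the group. The ratio was 0.999 for TH, which was 10.21 there, 0.962 for STMN3, 0.909 for ELAVL4, 0.853 for TUBB2B and 0.832 for SCG5. These were 5 of the 64 groups examined, 32 genes in each genotype, and no group was marked by another lamb. Chance marks about 1 in 20 groups, but the genes were chosen from the high levels of this array, so the ratios describe that choice and are no test. For TUBB2B the dimmer probe set had this lamb lowest, and for STMN3 the dimmest had NmatCpat animal 1 highest.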

How the results depend on the processing

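The counts of genes highest in NmatNpat animal 1 (27 to 28), leading by more than 1 (23 to 24) or by more than 3 (11 to 12), and reading on all other 7 arrays (2 to 4) stayed within 1.5 times their value under every alternative run for them. Of the single leads, 118 moved by less than the spread among the other arrays and 10 by more. With the mean of a gene's probe sets TUBB2B had -0.04, CHGA 1.16, SYP 0.83 and SLC6A2 2.19.

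Over all probe sets 943 were called, against 244 above the median level, 626 without moderated variance, 210 at P of at most 0.01 and 602 at a fold over 2. At an adjusted p of 0.05 the count of 0 became 1 with the offset of 16, above the median level and with a trended robust variance. The 2 members called became 1 with the offset or at P of at most 0.01, and 0 above the median level, where 9 members were tested. They became 3 with a trended robust variance, where NEFL joined. With 1 lamb left out the counts ran from 980 to 1054 probe sets called, 0 to 2 at an adjusted p of 0.05 and 2 to 4 members. The 4 were without NmatNpat animal 2, where NEFL (-5.35) and SYT1 (1.48) joined. VIP was called without NmatCpat animal 1 (-1.28) and without NmatNpat animal 3 (-1.57). With 1 lamb left out TH ran from -1.65 to 0.44 and GAP43 from -1.0 to 0.14. Both turned sign without NmatNpat animal 1, and without it and NmatCpat animal 4, a choice made after seeing the data, to 0.47 and 0.28. ELAVL4 and NRN1 were called without both lambs. The causes were not tested.

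With the animal number as a replicate block 1124 probe sets and the same 2 members were called. Animals of the same number did not deviate together, with correlations from -0.01 to 0.05, so the numbers were not taken as pairs. Levels below the median of all probe sets limit most members outside NmatNpat animal 1.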
